A study of Mus musculus with 11 samples.

Results

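Ccr1, Ccr2, Ccr6, Cx3cr1, Cxcr2, Cxcr4 and Ccrl2 are 7 genes of the chemokine receptor family, described here in cells that developed from mouse monocytes in culture. They were taken by gene symbol from the 21860 genes of a deposited table of normalized counts, where each symbol stood on 1 row. Genes were tested where 2 or more of the 11 samples reached 10 normalized counts, which left 13095 genes and all 7 receptors.

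Monocytes were purified from bone marrow and harvested on day 6 of culture with GM-CSF (20 ng/ml), a growth factor for myeloid cells. CD11b-low EpCAM+ cells were then sorted, since Langerhans cells, the phagocytes of the epidermis, carry the adhesion molecule EpCAM. Bulk RNA sequencing gave 11 samples in 5 groups. The Jag1 only sample (n = 1) had GM-CSF and the Notch ligand Jagged-1 (Jag1), without TGFβ or IL-34. The other 10 samples also had TGFβ (TGFb in the labels, 5 ng/ml) and IL-34 (IL34, 8 µg/ml), cytokines that drive Langerhans cell development. With nothing further they are called TGFβ/IL-34 (n = 2), with FICZ added TGFβ/IL-34/FICZ (n = 2), and with Jag1 added TGFβ/IL-34/Jag1 (n = 3). The 3 samples given both agents are called TGFβ/IL-34/Jag1/FICZ. FICZ is a ligand of the aryl hydrocarbon receptor (Ahr), a sensor of small aromatic molecules. The study names it an agonist and the deposited design text an antagonist. Its dose and the strain and age of the mice are not given in the labels. Jag1 was carried by OP9 cells, a mouse bone marrow stromal line. The labels describe every sample as grown with OP9 cells, but stromal collagen Col1a2 was listed at 0 in all 4 samples without Jag1 and stood at 52.9 to 823 in the 7 with it. The ligand and the stroma that carried it therefore cannot be told apart. Because the labels do not tie replicates to separate animals or cultures, p-values measure only the spread between these samples, which may be technical. In bulk samples, fewer cells of a type and less RNA per cell cannot be told apart either.

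Chemokine receptors are G protein-coupled receptors that steer leukocytes along gradients of chemokines. Ccr2 lets classical monocytes leave the marrow and enter inflamed tissue, Ccr6 draws Langerhans cell precursors toward the epithelium, and Ccr7 leads mature Langerhans and dendritic cells to lymph nodes. Monocytes that settle in a tissue commonly lose Ccr2 and change the set of receptors on their surface, so these genes are often used to place a cell between the blood and a resident state.

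Normalized counts summed to 21.3 M to 27.8 M per sample, and low values placed the worth of 1 read at 0.895 to 1.15 normalized counts. Values under 3 reads (2.69 to 3.45 normalized counts, depending on the sample) were read as at the limit of detection, for counting error only. Samples of the same group correlated at 0.963 to 0.980 over genes, except the TGFβ/IL-34/FICZ pair, at 0.922. Each sample carries 1 of 3 experiment codes in its description (AA45, AA47 or AA48) and came from 1 of 2 flow cells. The smaller flow cell held only TGFβ/IL-34/FICZ replicate 1 and TGFβ/IL-34/Jag1/FICZ replicate 1, both with FICZ. By these codes TGFβ/IL-34 had no AA45 sample and TGFβ/IL-34/FICZ no AA48 sample. Flow cell is thus partly confounded with FICZ, and the code with the contrasts that use these groups. Epcam, the gene of the sort marker, stood at 657 in the Jag1 only sample and at 3952 to 14377 in the other 10. Cd207, which encodes the Langerhans cell lectin langerin, reached 1366 to 1784 in TGFβ/IL-34/Jag1 but stayed at 6.21 to 157 in the other groups, so the defining marker of Langerhans cells was low outside TGFβ/IL-34/Jag1.

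**Figure D1:**
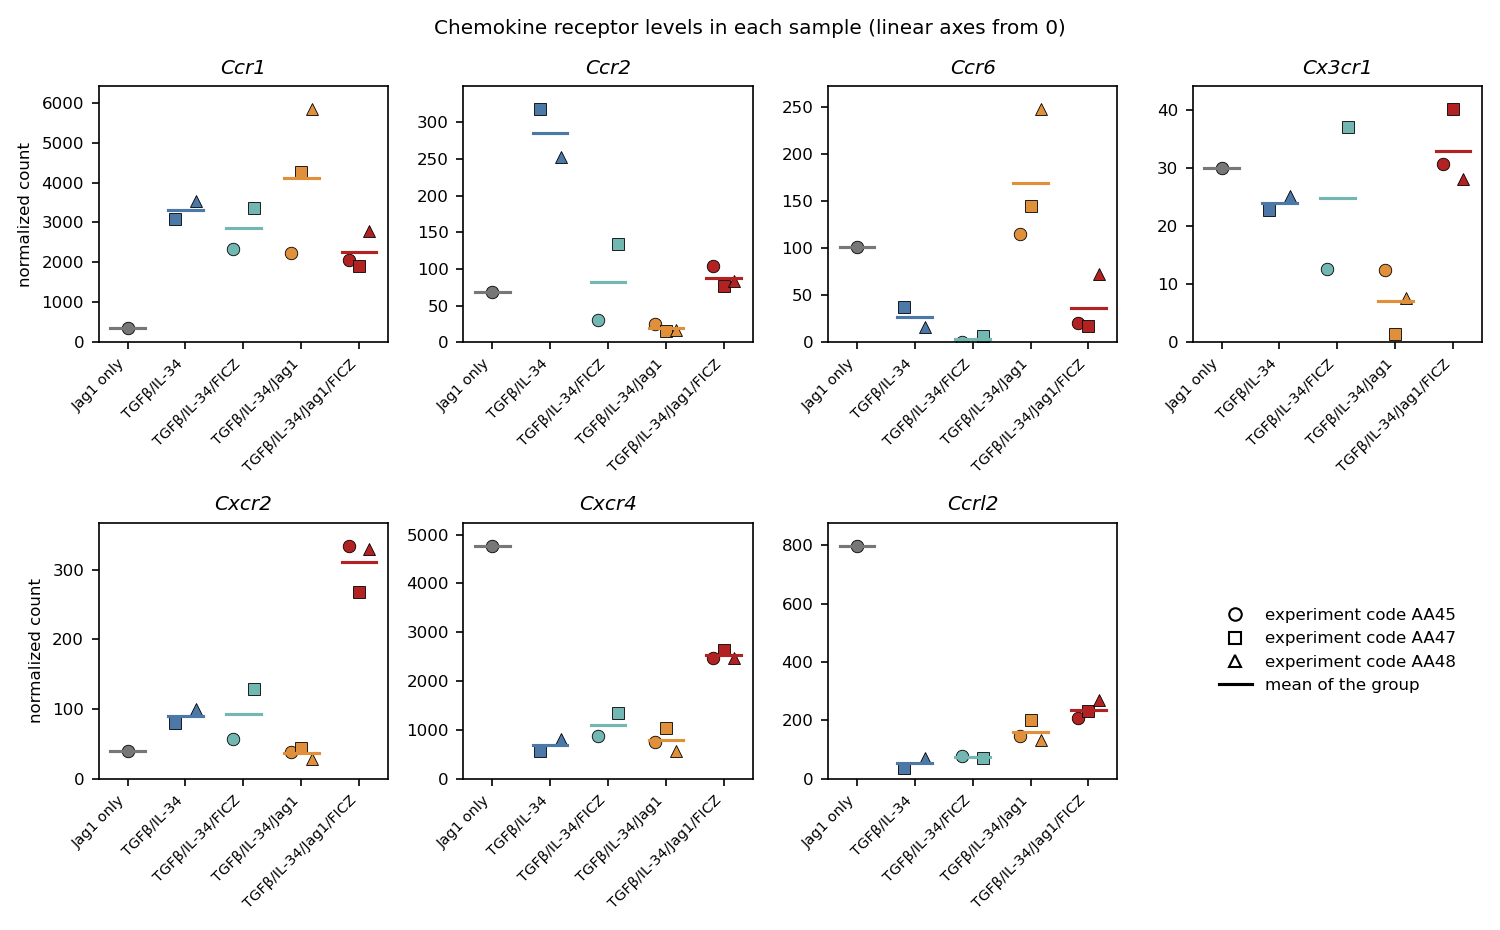
Normalized count (y axis, linear, from 0) of each of the 7 chemokine receptors in every sample, by culture group (x axis). Points are samples, their shape is the experiment code and bars are group means. Cxcr2 in TGFβ/IL-34/Jag1/FICZ (267 to 334) sits above all other samples, and Cxcr4 and Ccrl2 are highest in the Jag1 only sample (4769 and 798).

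Ccr2 is the receptor for Ccl2, Ccl7 and Ccl12 on classical monocytes. Its normalized count was 318 and 253 in TGFβ/IL-34, 30.8 and 134 in TGFβ/IL-34/FICZ, 24.2, 15.4 and 17.1 in TGFβ/IL-34/Jag1, 104, 76.1 and 83.1 in TGFβ/IL-34/Jag1/FICZ, and 68.6 in the Jag1 only sample. Both TGFβ/IL-34 samples were above all others and all 3 TGFβ/IL-34/Jag1 samples were below all others. The order of means was TGFβ/IL-34 (285 ± 45.9, SD, n = 2), TGFβ/IL-34/Jag1/FICZ (87.7 ± 14.5, n = 3), TGFβ/IL-34/FICZ (82.2 ± 72.6, n = 2), Jag1 only and TGFβ/IL-34/Jag1 (18.9 ± 4.70, n = 3). In the middle of that order, TGFβ/IL-34/Jag1/FICZ and the Jag1 only sample both lay within the range of TGFβ/IL-34/FICZ. The FICZ samples without Jag1 were 4.34-fold apart from each other, the widest replicate spread of Ccr2.

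Cx3cr1 is the receptor for Cx3cl1 (fractalkine) and marks patrolling monocytes and many resident macrophages. By the median over the 11 samples it was the lowest of the 7 genes, although Ccr6 lay below it in some samples. It stood at 22.8 and 25.2 in TGFβ/IL-34, 12.7 and 37.1 in TGFβ/IL-34/FICZ, 12.5, 1.40 and 7.63 in TGFβ/IL-34/Jag1, 30.7, 40.2 and 28.1 in TGFβ/IL-34/Jag1/FICZ, and 30.1 in the Jag1 only sample. All 3 TGFβ/IL-34/Jag1 samples were below the other 8, the nearest of them narrowly (12.5 against 12.7), and the means of the other 4 groups (24.0 to 33.0) followed each other with overlapping ranges. The value of 1.40 in TGFβ/IL-34/Jag1 replicate 2 was under 3 reads.

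Ccr1, a receptor of monocytes, macrophages and neutrophils for Ccl3, Ccl5, Ccl6 and Ccl9, had the highest median of the 7. It stood at 3094 and 3546 in TGFβ/IL-34, 2346 and 3358 in TGFβ/IL-34/FICZ, 2245, 4261 and 5833 in TGFβ/IL-34/Jag1, 2065, 1916 and 2794 in TGFβ/IL-34/Jag1/FICZ, and 363 in the Jag1 only sample. Only the Jag1 only sample stood clear of the others, with the lowest of them at 5.27 times its value. The other 4 groups, with means of 2258 to 4113, overlapped with their neighbours in order.

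Ccr6 is the receptor for Ccl20. Its normalized count was 37.6 and 15.9 in TGFβ/IL-34, 0 and 6.38 in TGFβ/IL-34/FICZ, 115, 145 and 248 in TGFβ/IL-34/Jag1, 20.2, 17.4 and 72.2 in TGFβ/IL-34/Jag1/FICZ, and 102 in the Jag1 only sample. All 3 TGFβ/IL-34/Jag1 samples were above all others and both FICZ samples without Jag1 were below all others. Between them, TGFβ/IL-34/Jag1/FICZ (36.6 ± 30.9, SD, n = 3) overlapped with its neighbour in the order, TGFβ/IL-34 (26.7 ± 15.3, n = 2).

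Cxcr2 is the receptor for Cxcl1, Cxcl2, Cxcl3 and Cxcl5 that draws neutrophils to inflamed tissue. It stood at 79.4 and 99.7 in TGFβ/IL-34, 57.5 and 128 in TGFβ/IL-34/FICZ, 38.7, 43.7 and 28.4 in TGFβ/IL-34/Jag1, 334, 267 and 330.1 in TGFβ/IL-34/Jag1/FICZ, and 39.4 in the Jag1 only sample. The 3 samples with both agents did not overlap with any other sample, at 3.34 times the mean of the next group, TGFβ/IL-34/FICZ (311 ± 37.4, n = 3, against 92.8 ± 49.9, n = 2). Below them, TGFβ/IL-34/FICZ and TGFβ/IL-34 overlapped, as did TGFβ/IL-34/Jag1 and the Jag1 only sample.

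Cxcr4 is the receptor for Cxcl12, which retains blood cells in the marrow, and is also found on Langerhans cells and dendritic cells. Its values were 574 and 807 in TGFβ/IL-34, 869.5 and 1346 in TGFβ/IL-34/FICZ, 745, 1036 and 571 in TGFβ/IL-34/Jag1, 2480.5, 2630.4 and 2471 in TGFβ/IL-34/Jag1/FICZ, and 4769 in the Jag1 only sample. The 3 samples with both agents lay within 1.06-fold of each other, above the other 7 samples with TGFβ and IL-34, and the Jag1 only sample was at 1.81 times the highest of them. TGFβ/IL-34/FICZ came next in the order, then TGFβ/IL-34/Jag1, then TGFβ/IL-34, with overlapping neighbours.

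Ccrl2 encodes an atypical receptor that binds chemerin and presents it to cells with Cmklr1, without G protein signalling of its own. It stood at 36.1 and 71.6 in TGFβ/IL-34, 79.0 and 69.4 in TGFβ/IL-34/FICZ, 146, 201 and 133 in TGFβ/IL-34/Jag1, 208, 232 and 269 in TGFβ/IL-34/Jag1/FICZ, and 798 in the Jag1 only sample. Every sample with Jag1 was above every sample without it. In the order of means, only TGFβ/IL-34/FICZ (74.2 ± 6.76, n = 2) and TGFβ/IL-34 (53.8 ± 25.1, n = 2) overlapped.

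The sequences upstream of Cxcr2 and Cxcr4 are shown because these genes had the smallest adjusted p-values of the 7 under FICZ in the presence of Jag1. Each is the 250 bases before the start of the canonical transcript (GENCODE vM39, GRCm39), 5′ to 3′ on the strand of the gene. Capitals mark matches on either strand to GCGTG, the core of the Ahr response element, or to TGGGAA, the core of the site of RBPJ, the factor at which Notch signals act. Letters of both motifs did not overlap. The Cxcr2 sequence lies at chr1:74192900-74193149 on the plus strand and the Cxcr4 sequence at chr1:128520045-128520294 on the minus strand.
Cxcr2: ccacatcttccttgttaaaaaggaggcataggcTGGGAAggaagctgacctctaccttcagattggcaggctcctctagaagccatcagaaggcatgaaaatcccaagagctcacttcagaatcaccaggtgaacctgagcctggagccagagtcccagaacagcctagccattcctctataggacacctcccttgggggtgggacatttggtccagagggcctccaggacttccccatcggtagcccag
Cxcr4: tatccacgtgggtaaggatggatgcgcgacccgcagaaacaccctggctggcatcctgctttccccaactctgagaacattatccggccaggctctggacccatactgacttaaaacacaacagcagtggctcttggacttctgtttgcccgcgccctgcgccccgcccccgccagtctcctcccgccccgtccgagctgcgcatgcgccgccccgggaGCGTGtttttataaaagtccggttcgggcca
The Cxcr4 sequence held GCGTG beginning 31 bases before the start, and the Cxcr2 sequence TGGGAA beginning 217 bases before it. Of the 7 genes, Ccr1 and Cxcr4 held GCGTG in this window, against 40.0% of 13070 tested genes. Cx3cr1 and Cxcr2 held TGGGAA, against 21.9%. A match is a run of letters and not a bound site.

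To ask what Jag1 did without FICZ, TGFβ/IL-34/Jag1 was compared with TGFβ/IL-34. Ccr2 fell and Ccrl2 rose, and none of the other 5 genes passed the test. The test was limma on log2(normalized count + 1), two-sided, with Benjamini-Hochberg adjustment over all genes tested and a threshold of 0.05, and fold changes below are on that scale, which understates those of low genes. These 2 of 7 genes stood beside 6.60% of all genes called in either direction. Ccr2 had a log2 fold change of −3.86 ± 0.54 (SE, limma, adjusted p = 0.00253), 14.5-fold lower, with −4.28 and −3.81 within experiment codes AA47 and AA48. Ccrl2 had 1.61 ± 0.34 (limma, adjusted p = 0.0190), 3.05-fold higher, with 2.45 and 0.88 within the codes. Its call was lost without TGFβ/IL-34 replicate 1 (adjusted p = 0.204) and without TGFβ/IL-34/Jag1 replicate 2 (adjusted p = 0.0588), whereas Ccr2 kept its call in all 14 alternatives (adjusted p up to 0.0367).

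The 3 genes with the next largest differences did not pass. Ccr6 had a log2 fold change of 2.66 ± 0.88 (limma, adjusted p = 0.116) although all samples with Jag1 were above those without it. It passed with a pseudocount of 4 (adjusted p = 0.0474) and in a fit of the compared groups alone (adjusted p = 0.0195). Cx3cr1 had −1.93 ± 0.74 (limma, adjusted p = 0.181) and Cxcr2 −1.27 ± 0.38 (limma, adjusted p = 0.0858). For Ccr1 and Cxcr4 the 95% intervals of the log2 fold change ran from −0.58 to 0.99 and from −0.45 to 0.77.

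FICZ without Jag1 was compared with TGFβ/IL-34 alone. None of the 7 genes passed limma here, and 0.0229% of all genes did, 3 in number, while 2284 genes had an unadjusted p under 0.05. Of the 7 receptors, 2 had such a p. Ccr6 had a log2 fold change of −3.23 ± 0.96 (limma, adjusted p = 0.285) and Ccr2 of −2.12 ± 0.59 (limma, adjusted p = 0.285), and in both genes the FICZ samples lay below the TGFβ/IL-34 samples. Without TGFβ/IL-34/FICZ replicate 2 the log2 fold changes were −4.67 for Ccr6 and −3.16 for Ccr2. That leaves 1 FICZ sample, which has no spread and came from another flow cell than both TGFβ/IL-34 samples. Replicate 2 carries 134 normalized counts of Ccr2 against 30.8 in replicate 1. The 95% interval of Cxcr2 ran from −0.99 to 0.89 and that of Cxcr4 from −0.0037 to 1.34.

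The question of what FICZ did when Jag1 was present set TGFβ/IL-34/Jag1/FICZ beside TGFβ/IL-34/Jag1. Cxcr2, Cx3cr1, Ccr2 and Cxcr4 rose, and Ccr6 and Ccr1 were lower without passing. The 4 of 7 genes that passed were all higher, where 17.7% of all genes passed in either direction and 10.9% were higher. Cxcr2 had a log2 fold change of 3.05 ± 0.34 (limma, adjusted p = 0.000273), 8.29-fold higher. Cxcr4 had 1.73 ± 0.25 (limma, adjusted p = 0.000997), 3.32-fold higher, and both genes kept their calls in all 15 alternatives. Ccr2 had 2.17 ± 0.48 (limma, adjusted p = 0.0110), 4.50-fold higher, and missed the threshold only without TGFβ/IL-34/Jag1/FICZ replicate 1 (adjusted p = 0.0503). Cx3cr1 had 2.36 ± 0.67 (limma, adjusted p = 0.0340). Its call held in 6 of 15 alternatives and failed without TGFβ/IL-34/Jag1 replicate 2, the sample at 1.40, with a log2 fold change of 1.64 and adjusted p = 0.0862. It was also lost without TGFβ/IL-34/Jag1 replicate 3 (adjusted p = 0.0612) and without TGFβ/IL-34/Jag1/FICZ replicate 1, 2 or 3 (adjusted p = 0.0911, 0.124 and 0.0755). No filter on low values, quantile normalization and a block for either version of the experiment code lost the Cx3cr1 call as well.

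**Figure D2:**
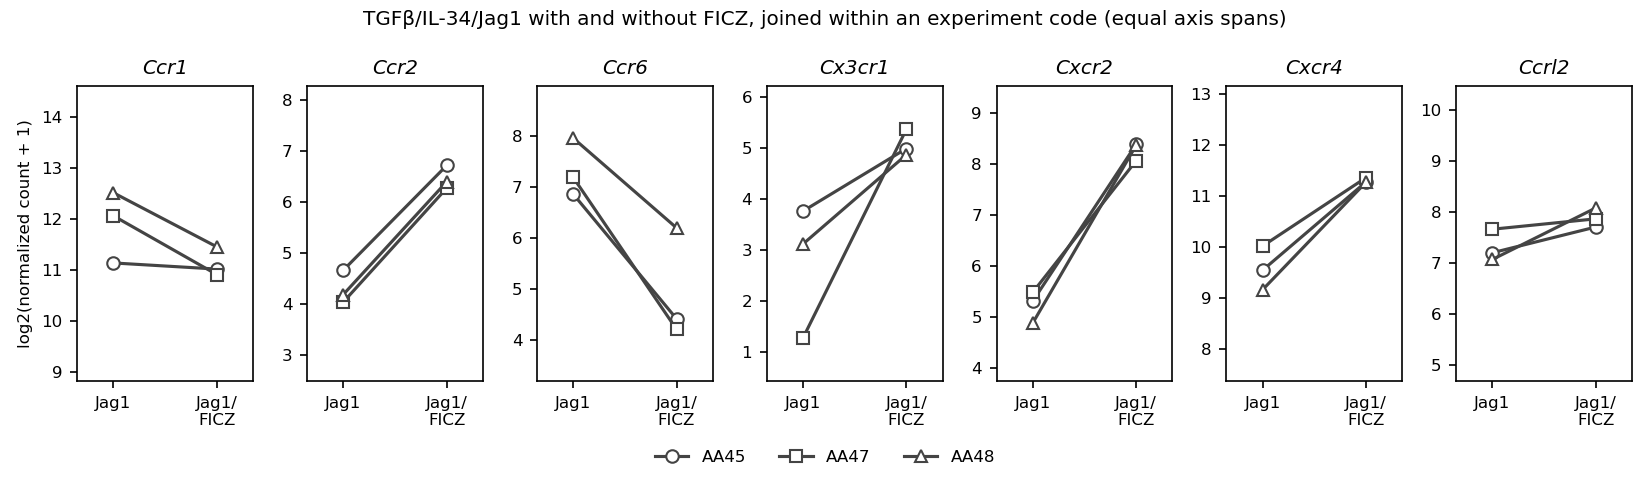
log2(normalized count + 1) (y axis, equal spans in all panels) of each receptor in TGFβ/IL-34/Jag1 without FICZ (left) and with it (right), with lines joining the pair of samples of 1 experiment code. Ccr2, Cx3cr1, Cxcr2 and Cxcr4 go up and Ccr6 and Ccr1 go down in all 3 codes.

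In these 2 groups the replicate numbers carry the same experiment codes. Deviations of same-numbered samples from their group means were weakly correlated (r = 0.122 to 0.166), and the contrast was also read within codes. Ccr2 differed by 2.06, 2.24 and 2.22 on the log2 scale within AA45, AA47 and AA48, Cxcr2 by 3.08, 2.59 and 3.49, and Cxcr4 by 1.73, 1.34 and 2.11. Cx3cr1 differed by 1.23, 4.10 and 1.75. In a fit of these groups blocked by replicate number, 6 of 7 genes passed, since Ccr6 (−2.40, limma, adjusted p = 0.00270) and Ccr1 (−0.78, limma, adjusted p = 0.0268) then passed as lower. Without the block they had adjusted p = 0.0619 and 0.125. Of the 15 alternatives, Ccr6 passed in 6 and Ccr1 in 3, the block for the description's experiment code among them for both genes. The differences within codes were −2.45, −2.99 and −1.76 for Ccr6, and −0.12, −1.15 and −1.06 for Ccr1. Ccrl2 did not pass in either fit (0.57 ± 0.30, limma, adjusted p = 0.244 without the block).

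Samples with both agents were next set against TGFβ/IL-34. Ccrl2, Cxcr4 and Cxcr2 rose, 3 of 7 genes, where 4.48% of all genes passed and 3.12% were higher. Ccrl2 had a log2 fold change of 2.18 ± 0.34 (limma, adjusted p = 0.00751), Cxcr4 of 1.89 ± 0.28 (limma, adjusted p = 0.00569) and Cxcr2 of 1.78 ± 0.38 (limma, adjusted p = 0.0302). Within AA47 and AA48 these were 2.65 and 1.90, 2.19 and 1.61, and 1.74 and 1.72. Ccr2 had −1.69 ± 0.54 (limma, adjusted p = 0.116). Its 3 samples with both agents lay below both TGFβ/IL-34 samples, and it passed in a fit of these groups alone (adjusted p = 0.00224). Without TGFβ/IL-34 replicate 1 none of the 7 passed (Ccrl2, Cxcr4 and Cxcr2 at adjusted p = 0.112, 0.107 and 0.277). Cxcr2 missed the threshold whichever single sample of these groups was left out, at adjusted p = 0.0884 to 0.277. With all samples kept, its call was lost with no filter on low values and with a block for either version of the experiment code. It held in 6 of 14 alternatives.

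The effect of Jag1 when FICZ was present came from the samples with both agents and the TGFβ/IL-34/FICZ pair. Cxcr2 and Ccrl2 rose, 2 of 7 genes, where 2.02% of all genes passed and 1.41% were higher. Cxcr2 had a log2 fold change of 1.83 ± 0.38 (limma, adjusted p = 0.0424), with 2.52 and 1.06 within AA45 and AA47. Ccrl2 had 1.65 ± 0.34 (limma, adjusted p = 0.0384), with 1.38 and 1.73. Cxcr4 had 1.22 ± 0.28 (limma, adjusted p = 0.0552) and Ccr6 3.49 ± 0.88 (limma, adjusted p = 0.0783), and in both genes the samples with Jag1 lay above those without it. Both calls were lost without TGFβ/IL-34/FICZ replicate 1 and without any single TGFβ/IL-34/Jag1/FICZ replicate (adjusted p = 0.124 to 0.149 for Cxcr2 and 0.0757 to 0.139 for Ccrl2). They were also lost when blocked by the description's experiment code (limma, adjusted p = 0.0772 for Cxcr2 and 0.0794 for Ccrl2), with no filter on low values (0.0708 and 0.0654) and in a fit of the compared groups alone (0.153 and 0.114). A block for the other version of the code lost both calls as well, and there Cxcr4 passed. Without TGFβ/IL-34/FICZ replicate 2, which leaves 1 sample in that group, the log2 fold changes were 1.47 for Ccr2, 4.94 for Ccr6 and 1.54 for Cxcr4.

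Ccr2 and Cxcr2 also passed the test of the interaction, which takes the FICZ effect with Jag1 minus the FICZ effect without it. These 2 of 7 genes, both higher, stood beside 1.39% of all genes called and 1.17% called higher. For Ccr2 the log2 difference was 4.29 ± 0.76 (limma, adjusted p = 0.0369), from 2.17 with Jag1 and −2.12 without it. For Cxcr2 it was 3.10 ± 0.54 (limma, adjusted p = 0.0365), from 3.05 and −0.05. Leaving out 1 sample at a time gave adjusted p up to 0.205 for Ccr2 and 0.216 for Cxcr2, both without TGFβ/IL-34 replicate 2. Of the 10 samples left out in turn, the call of Ccr2 held only without TGFβ/IL-34/FICZ replicate 1 or 2, and that of Cxcr2 only without those or TGFβ/IL-34/Jag1 replicate 2. Both calls were lost when blocked by the description's experiment code (limma, adjusted p = 0.0745 for Ccr2 and 0.0752 for Cxcr2) and with no filter (0.0782 and 0.0664). Cx3cr1 and Cxcr4 did not pass (limma, adjusted p = 0.245 and 0.204). Without TGFβ/IL-34/FICZ replicate 2, which leaves 1 sample in that group, their log2 differences were 3.23 and 1.38. The contrasts share groups, so their values are not independent of each other.

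**Figure D3:**
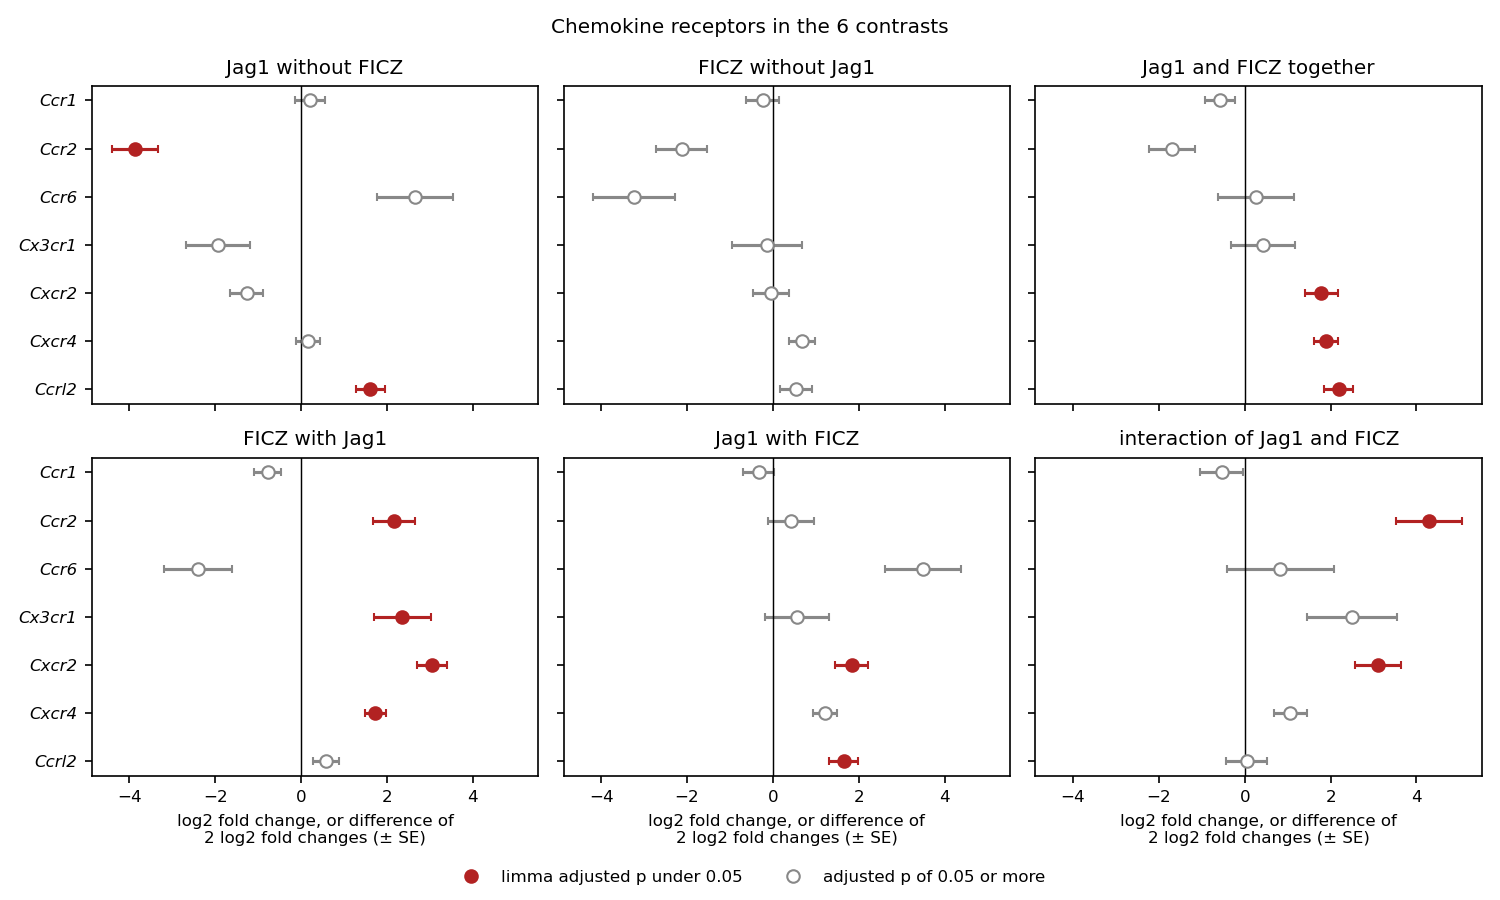
Log2 fold change, or for the interaction the difference of 2 log2 fold changes, ± SE (x axis) of the 7 receptors (y axis) in the 6 contrasts. Filled points passed limma at an adjusted p under 0.05. Ccr2 lies at −3.86 for Jag1 without FICZ and at 2.17 for FICZ with Jag1, and no point is filled for FICZ without Jag1.

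The Jag1 only sample has no replicate and no test. It differed from the other 10 samples in 3 of the 7 receptors, with Cxcr4 (4769) and Ccrl2 (798) above and Ccr1 (363) below all of them. Ccrl2 was at 2.96 times the highest other sample. Beside TGFβ/IL-34/Jag1 replicate 1, which shares its experiment code, it had 102 normalized counts of Ccr6 against 115, 39.4 of Cxcr2 against 38.7, and 68.6 of Ccr2 against 24.2. Cmklr1, the signalling receptor for the chemerin that Ccrl2 binds, was also highest there, at 147 against 20.9 to 101. Rarres2, the gene of chemerin, was listed at 0 in 6 samples, the Jag1 only sample included. Cxcr5 was highest in that sample too, at 177 against 16.7 to 135.

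Levels of different genes were compared per kb of canonical transcript. By the median over 11 samples, Ccr1 (984 normalized counts per kb) and Cxcr4 (568) were followed by Ccrl2 (58.9), Cxcr2 (26.1), Ccr6 (23.9), Ccr2 (13.3) and Cx3cr1 (6.71). Ccr7 was at 21350 per kb and took 81.6% to 95.7% of the summed level of the 24 chemokine and atypical receptors considered, so the migratory receptor outweighed the 7 in every sample. Cxcr4 took 1.46% to 10.8% of that sum and Ccr1 0.526% to 14.3%.

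**Figure D4:**
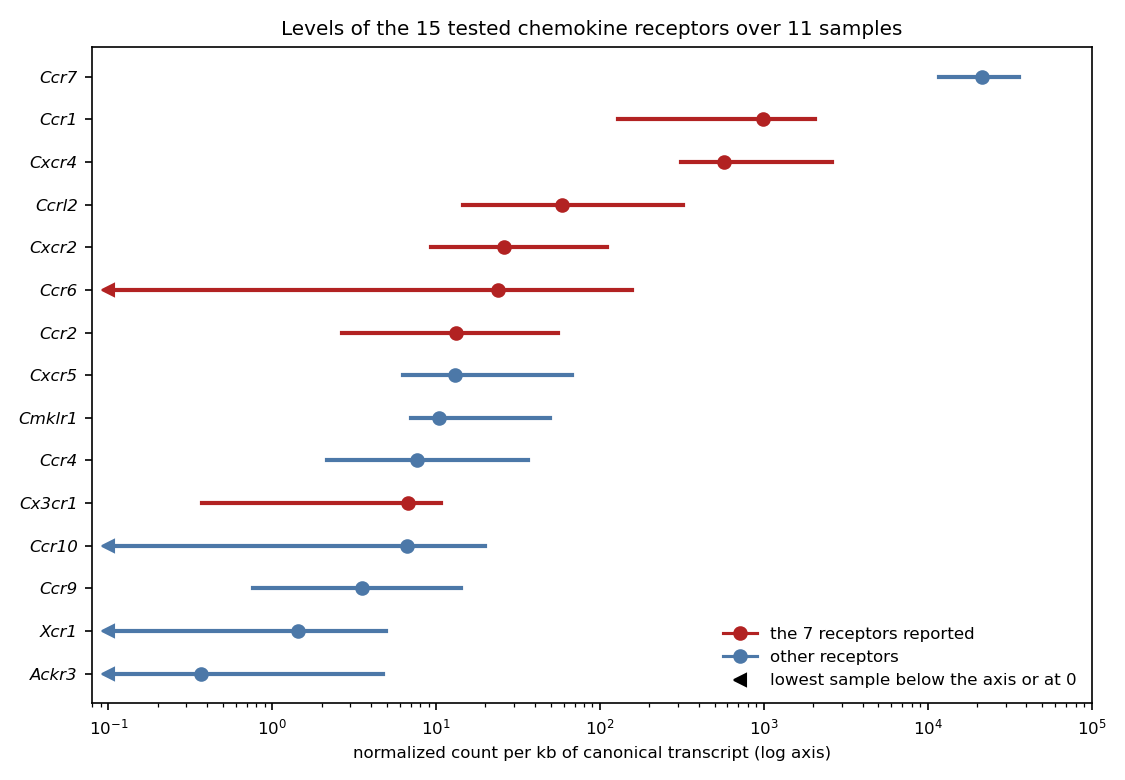
Normalized count per kb of canonical transcript (x axis, log scale) of the 15 receptor genes that passed the limit for testing (y axis), as median (point) and range (line) over 11 samples, with arrows where the lowest sample was at 0. Ccr7 lies above all others at 21350, and the 7 receptors reported spread from 6.71 (Cx3cr1) to 984 (Ccr1).

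Of the 17 other receptors, 8 were tested and the other 9 reached at most 6.24 normalized counts in any sample. The untested genes were Ccr1l1, Ccr3, Ccr8, Cxcr1, Cxcr3, Cxcr6, Ackr1, Ackr2 and Ackr4. Ccr4, a receptor of T cells and some dendritic cells, passed in all contrasts but FICZ without Jag1. It was at 6.10 to 7.44 in TGFβ/IL-34/Jag1, 17.0 to 27.8 in the groups without Jag1 and 84.0 to 102 in TGFβ/IL-34/Jag1/FICZ, with a log2 fold change of 3.62 ± 0.37 for FICZ with Jag1 (limma, adjusted p = 0.000168). Ccr7, Ccr9, Ccr10, Cxcr5, Xcr1, Ackr3 and Cmklr1 passed in none of the 6 contrasts.

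Of the 7 receptors, 4 lie on chromosome 9. In GRCm39 Ccr1 lies at chr9:123762161-123768734 (minus strand) and Ccr2 at chr9:123901982-123913594 (plus strand), with Ccr1l1 and Ccr3 between them. Ccr1l1 reached 6.24 and Ccr3 3.45 normalized counts at most. Cx3cr1 (chr9:119877749-119898945) and Ccrl2 (chr9:110883554-110886591), both on the minus strand, lie elsewhere on that chromosome. Cxcr2 (chr1:74193150-74200405, plus strand) and Cxcr4 (chr1:128515936-128520044, minus strand) are on chromosome 1, and Ccr6 (chr17:8454869-8475973, plus strand) is on chromosome 17. Cxcr1, the closest relative of Cxcr2, begins 37.8 kb beyond the start of Cxcr2 and reached 3.12. The coding sequence lies in 1 exon in Ccr1, Ccr2, Ccr6, Ccrl2, Cx3cr1 and Cxcr2 and in 2 exons in Cxcr4. Some genes of this family are close in sequence, such as Ccr1 and Ccr1l1, so reads could have been divided between them by the quantification.

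Of 18 ligands of the 7 receptors, 14 were tested. In TGFβ/IL-34/Jag1 against TGFβ/IL-34, Ccl6 (log2 fold change −4.03 ± 0.55), Ccl9 (−3.07 ± 0.43) and Ccl5 (−1.96 ± 0.37), ligands of Ccr1, fell (limma, adjusted p = 0.00217, 0.00254 and 0.0120). Cxcl12, the ligand of Cxcr4, rose (limma, adjusted p = 0.0286). Cxcl12 was listed at 0 in all 4 samples without Jag1 and stood at 3.94 to 28.5 in TGFβ/IL-34/Jag1. It is a product of marrow stroma, and the stromal collagen Col1a1 was at 84.1 to 369 in the same samples against 0 to 3.84 without Jag1. In TGFβ/IL-34/Jag1/FICZ, Cxcl12 was lower on average (5.28 to 7.62) while Col1a1 was higher on average (222 to 1345). The Jag1 only sample had 0.77 of Cxcl12 and 37.4 of Col1a1. The source of Cxcl12 was not tested. With FICZ added to Jag1, 5 ligands rose and 1 fell of the 14, where 17.7% of all genes passed in either direction and 10.9% were higher. Ccl9 rose from 124 ± 65.8 to 4182 ± 486 (SD, n = 3 each), a log2 fold change of 5.19 ± 0.39 (limma, adjusted p = 2.98e-05). Ccl3 and Ccl6 rose by 4.16 and 3.55 on the log2 scale (limma, adjusted p = 0.00162 and 0.000821), Ccl4 and Ccl5 rose as well, and Ccl12 was listed at 0 in all 3 samples with FICZ.

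With both agents against TGFβ/IL-34, Ccl9 and the Cxcr2 ligands Cxcl1 and Cxcl3 rose (2.11, 2.07 and 1.58 on the log2 scale, limma, adjusted p = 0.0239, 0.0327 and 0.0327). Ccl9 (3.96) and Ccl6 (3.95) also passed in the interaction (limma, adjusted p = 0.0221 and 0.0430). None of the 14 passed for FICZ without Jag1 or for Jag1 with FICZ. Cx3cl1, the ligand of Cx3cr1, stood at 4537 to 12758 in all 11 samples, and Ccl20, the ligand of Ccr6, was listed at 0 in all of them.

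Downstream of the receptors, 24 of 24 genes of G protein signalling and desensitization were tested. Rac2, a GTPase of blood cells that acts in chemotaxis, fell with Jag1 (−2.09 ± 0.20, limma, adjusted p = 0.000285) and rose when FICZ was added to Jag1 (2.12 ± 0.17, limma, adjusted p = 4.90e-05). It passed in the interaction (1.42, limma, adjusted p = 0.0430). With FICZ and Jag1, Rgs1 (1.17), Grk5 (0.70) and Grk6 (0.66) rose, and Gng2 (−1.40), Plcb2 (−0.92) and Rgs2 (−0.86) fell (limma, adjusted p = 0.00917 to 0.0386). That was 7 of 24, beside the 17.7% of all genes in this contrast. Rgs1, Rgs2, Grk5 and Grk6 all dampen receptor signalling, so genes of that role moved in both directions. In Jag1 without FICZ and in the interaction Rac2 alone passed, and in the other 3 contrasts none did.

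Markers of other cell types also differed between the groups. The counts for all these marker lists stand beside the shares of all genes that passed. Those were 17.7% for FICZ with Jag1 (10.9% higher) and 6.60% for Jag1 without FICZ. For both agents the share was 4.48% (3.12% higher) and for Jag1 with FICZ 2.02% (1.41% higher). With FICZ added to Jag1, 9 of 12 tested neutrophil genes rose and none fell, with a median log2 fold change of 4.36 against −0.01 over all genes. The summed level of the 15 listed neutrophil genes was 359 to 440 in TGFβ/IL-34/Jag1 and 9144 to 13632 in TGFβ/IL-34/Jag1/FICZ, against 639 to 2096 in TGFβ/IL-34, 3738 to 6332 in TGFβ/IL-34/FICZ and 2243 in the Jag1 only sample. Those that rose were Elane, Mmp8, Ngp, Cd177, Prtn3, S100a9, Ctsg, S100a8 and Ltf, mostly proteins of neutrophil granules. In TGFβ/IL-34/Jag1 against TGFβ/IL-34, Elane, Mmp8 and Cd177 fell, and with both agents 5 of the 12 rose. Elane, the largest, went from 0 to 9.07 up to 2094 to 3694. The defining marker Ly6g was listed at 0 in 10 of 11 samples, TGFβ/IL-34/Jag1/FICZ included, Retnlg reached at most 2.13 and Mpo 27.2. Csf3r, the receptor for G-CSF, was at 53.5 to 113 in TGFβ/IL-34/Jag1 and 48.2 to 68.7 in TGFβ/IL-34/Jag1/FICZ.

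Of 7 tested mast cell and basophil genes, 5 rose for FICZ with Jag1, among them Ms4a2, Cpa3 and Hdc, while Fcer1a was listed at 0 in all samples. In TGFβ/IL-34/Jag1 against TGFβ/IL-34, Cpa3, Gata2 and Ms4a2 fell, and with both agents Cpa3, Hdc and Mcpt8 rose. The summed level of the list was 1846 to 2986 in TGFβ/IL-34/Jag1 and 10141 to 13187 in TGFβ/IL-34/Jag1/FICZ. Of the 8 tested monocyte genes, 4 fell with Jag1 (Ly6c2, Lyz2, Chil3 and Plac8), as did Ccr2, and with FICZ added to Jag1 5 rose (Plac8, Ly6c2, Vcan, Fn1 and Lyz2) and Csf1r fell. With both agents Plac8 and Fn1 rose and Csf1r fell.

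The 9 macrophage genes moved in both directions. With Jag1 4 rose (C1qa, C1qb, C1qc and Mertk) and 3 fell (Adgre1, Cd68 and Fcgr1), and when FICZ was added to Jag1 the same 4 fell while Cd68 and Apoe rose. Of 7 tested stromal genes, 4 rose with Jag1, 7 with both agents, and 5 for Jag1 with FICZ, while Dcn and Lum were listed at 0 in all samples. Thy1, which is also found on T cells, went another way than the collagens. It fell with Jag1 (−2.10, limma, adjusted p = 0.0175), rose with FICZ added to Jag1 (5.92, limma, adjusted p = 1.42e-05), as Pdgfrb did (2.23), and passed in the interaction (3.15, limma, adjusted p = 0.0430). Of 4 tested B and T cell genes, the T cell receptor subunits Cd3g (5.43, limma, adjusted p = 0.00165) and Cd3d (3.74, limma, adjusted p = 0.0127) rose with FICZ added to Jag1, and Cd3g rose with both agents. Cd3g was listed at 0 in TGFβ/IL-34/Jag1 and stood at 13.9 to 82.0 in TGFβ/IL-34/Jag1/FICZ and 24.5 to 93.9 in TGFβ/IL-34/FICZ, whereas Cd3e, a further subunit, reached at most 6.71. The part that any of these cell types had in the receptor values was not tested.

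The tested genes whose log2 levels followed each receptor most closely over the 11 samples, of 10908 with a mean of at least 50, are given as a description. The samples share groups, so these correlations rest on 5 conditions. For Ccr1 they were Cnp (Pearson r = 0.987), Pram1 (0.973) and Synj2bp (0.967), and for Ccr6 Peli1 (0.984), Bcl11a (0.982) and Zdhhc23 (0.976). Cxcr4 was followed by Myo10 (0.983), Thbs1 (0.973) and Fam107b (0.964), and Ccrl2 by Ip6k3 (0.971), Dnajb12 (0.967) and Ets1 (0.961). For Cxcr2 they were Ttll12 (0.966), Arhgap19 (0.962) and Vmn2r97 (0.959). Ccr2 was followed by Piwil2 (0.921), Cnep1r1 (0.919) and Pdgfc (0.915), and Cx3cr1 by Pik3r3 (0.925), Arhgap6 (0.918) and Ston2 (0.909). Among the receptors themselves the highest r was that of Cxcr4 and Ccrl2 (0.808) and the lowest that of Ccr1 and Cxcr4 (−0.745), pairs in which the Jag1 only sample lies at an extreme of both genes.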

How the data were processed

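Bulk RNA sequencing of 11 samples was analysed from 1 table. Per the study's methods, the authors quantified reads with salmon against Ensembl GRCm39, summed transcripts with tximport and scaled genes with DESeq2; versions are not given in the sources used here. The values the authors deposited are a normalized signal per gene, here called normalized counts. Strand use is not stated. Low values were whole multiples of 1 read within 0.1 steps in 94.5% to 99.5% of cases for 1792 genes with a single transcript, but in 52.1% to 58.2% over all genes, so no count model was run. Estimated depth was 20.6 M to 24.2 M reads per sample, and genes with few reads carry the largest counting error. A second deposited file gave a condition and an experiment code per sample, and its code differed from the sample description in 1 sample, TGFβ/IL-34 replicate 1. Columns of 0 samples were left unmapped.

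Some results for the receptor family are not reported here, and family sums and counts leave them out. Groups follow the labels. Genes with at least 10 in at least 2 samples (13095) entered limma 3.58.1 in R 4.3.3 on the scale log2(value + 1) (trend, 1 mean per group, all 11 samples, no covariate, 6 residual degrees of freedom), for 6 contrasts, each adjusted over all genes. The fit was tested on simulated data. An arm left with 1 sample borrowed the spread of the other groups. Levels per kb used canonical transcripts of GENCODE vM39, which held 21676 of 21860 genes. Alternatives were pseudocounts of 0.5 and 4, no filter, quantile normalization, the compared groups alone, blocks for the replicate number, experiment code or flow cell, and each sample left out. A block for the code of the second file was added after the data were seen. Replicate numbers were checked for pairing by the correlation of deviations from group means over genes. In the contrast of FICZ with Jag1, same-numbered samples (0.153, 0.122 and 0.166) carry the same experiment code and were read as paired. Those of the other contrasts (−0.0070 to 0.0591) were not read as paired, although in Jag1 with FICZ they also share the code (0.0591 and 0.0578). In the contrasts against TGFβ/IL-34, same-numbered samples carry different codes in the description. Their correlations therefore cannot tell whether samples of the same code were paired, and such pairs were not correlated.

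The receptors, the lists of related genes and the tests were chosen with earlier results of these data known. The text names all 7 receptors, up to 3 genes per direction and contrast of each list among those that passed, and the 3 genes with the highest correlation to each receptor. Beyond these, Ly6g, Retnlg, Mpo, Csf3r, Fcer1a, Dcn, Lum, Thy1, Cd3d, Cd3e, Cd3g, Cd207, Epcam, Cx3cl1, Ccl20 and the further list genes named in the text were chosen after their values were seen.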

Additional observations from a re-analysis of the deposited data

Results flagged for a closer look

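Ccr2 and Cxcr2 stood out because the effect of FICZ differed between cultures with and without Jag1 by a test of the difference itself. The log2 difference was 4.29 for Ccr2 and 3.10 for Cxcr2 (limma, adjusted p = 0.0369 and 0.0365). Both calls were lost with no filter and when blocked by the description's experiment code (adjusted p = 0.0664 to 0.0782), and they held without 2 (Ccr2) and 3 (Cxcr2) of the 10 samples left out in turn. The Ccr2 effect was 2.17 with Jag1 and −2.12 without it, where it did not pass (limma, adjusted p = 0.285), while that of Cxcr2 without Jag1 had a 95% interval from −0.99 to 0.89. Cxcr4 at 4769 and Ccrl2 at 798 normalized counts stood out in the Jag1 only sample, which enters no test and lay above all other samples in both genes. With 1 sample, no spread can be given for them.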

How the results depend on the processing

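Over 623 recomputed log2 fold changes of the 7 receptors (42 values), 507 kept their direction and their side of the threshold, 61 lost and 25 gained a call, and 30 changed sign. Among the counts of receptors that passed, those for Jag1 without FICZ (2) and FICZ with Jag1 (4) stayed within 1.5 times under all alternatives that kept every sample. For FICZ without Jag1 the count went from 0 to 1 with the replicate block, and for both agents together from 3 to 5 in a fit of these groups alone and also with the block. For Jag1 with FICZ it went from 2 to 0 (no filter, description code as block, the compared groups alone, replicate block) or 1 (flow cell or second file's code as block). The 1 was Ccrl2 with the flow cell block. With the second file's code it was Cxcr4, which had not passed in the main fit, and the calls of Cxcr2 and Ccrl2 were both lost. For the interaction the count went from 2 to 0 (no filter, description code as block) or 1 (replicate block). Leaving out 1 sample at a time gave 1 to 2 receptors for Jag1 without FICZ, 0 to 2 for FICZ without Jag1, 0 to 2 for both together, 2 to 5 for FICZ with Jag1, 0 to 5 for Jag1 with FICZ and 0 to 4 for the interaction. The cause was not tested, except that leave-outs have fewer samples. Sign changes were confined, in the settings run, to values that had not passed. For Jag1 without FICZ they were Ccr1 at −0.10 with the replicate block, and in leave-outs Ccr1 from −0.10 to 0.59 and Cxcr4 from −0.085 to 0.41. For FICZ without Jag1 they were Cx3cr1 at 0.048 (quantile normalization), 0.22 (flow cell) and 0.0026 (second file's code), Cxcr2 at 0.053 (quantile), 0.0080 (description code) and 0.15 (flow cell), Ccr1 at 0.20 (description code), and in leave-outs Ccr1 from −0.50 to 0.020, Cx3cr1 from −0.87 to 0.61 and Cxcr2 from −0.62 to 0.52. For both together Ccr6 was −0.37 with the replicate block and −0.37 to 0.86 in leave-outs. For Jag1 with FICZ, leave-outs ran from −0.61 to 1.47 for Ccr2 and −0.18 to 1.30 for Cx3cr1. In the interaction Ccr6 was −0.12 (pseudocount 4), −0.0035 (quantile) and −0.61 to 2.27 in leave-outs, and Ccrl2 −0.20 (quantile), −0.085 (description code) and −0.44 to 0.53 in leave-outs. Quantile normalization moved the interaction's median over all genes from 0.07 to −0.03. The replicate block changed no other call of a receptor in the contrast it pairs than those of Ccr1 and Ccr6, at 6 against 4 receptors, and 4240 against 2312 of all genes passed there. In the contrasts not read as paired, the block added Ccr6 for Jag1 without FICZ, Ccr2 for FICZ without Jag1, and Ccr1 and Ccr2 for both together. In each of these contrasts the block joined samples with different experiment codes in the description. It removed Cxcr2 and Ccrl2 for Jag1 with FICZ and Ccr2 in the interaction. Depth limits Cx3cr1 and Ccr6 most, with samples at or under 3 reads.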
